A study of Mus musculus with 6 samples.

Results

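Extracellular nucleotide and adenosine signalling was followed through 8 genes in bone marrow dendritic cell cultures that received midkine or no midkine: Entpd1, Nt5e, Ada, P2rx4, P2rx7, P2ry6, P2ry14 and Adora2b. The genes were taken by symbol from the deposited table, which held all 8 of them among 14912 genes. The midkine group was 3 samples of cultured wild type C57BL/6J bone marrow that received midkine, a growth factor that binds heparin, as recombinant human protein (10 ng/ml) for 2 days at the end of culture. The control group was 3 samples of the same strain and genotype without it. Both groups grew with FLT3 ligand, which drives dendritic cell development, at 50 ng/ml, renewed on day 7, and 3′ end RNA sequencing was run on whole cultures. Whether the replicates of a group were separate mice or cultures is not stated in the labels; p-values therefore reflect only how these 3 and 3 samples vary, which may be technical variation.

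Cells that are stressed or dying release ATP and other nucleotides, which act on ion channels of the P2X family and on G protein-coupled P2Y receptors. Ectonucleotidases at the cell surface break ATP down step by step to adenosine, which acts on its own receptors, mostly through cyclic AMP, until it is deaminated or taken up. In dendritic cells ATP acting on P2X7 is known as a trigger of the NLRP3 inflammasome, and adenosine as a brake on inflammatory cytokines.

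With midkine, the 2 P2X channel genes of the set moved in opposite directions. P2rx4 was 1.29-fold higher and P2rx7 1.48-fold lower than in control samples (ratio of mean normalised read counts, n = 3 each). P2ry14, the receptor of UDP-glucose, was 1.29-fold lower, while P2ry6, the receptor of UDP, and Entpd1, the ectonucleotidase that starts ATP breakdown, were not called. Nt5e, the enzyme that makes adenosine, was low in counts and was seen mainly in midkine libraries, with 28 reads against 2 in control libraries. Ada and Adora2b were also too low for the test. Of the 5 genes tested, 1 was called higher and 2 lower by limma at an adjusted p under 0.05, when 42.7% of all 11844 tested genes were called, 20.9% higher and 21.8% lower. With values scaled to total counts, 0 were called higher and 3 lower, when 10.8% of all genes were called higher and 40.7% lower. The groups did not overlap for 3 of the 5, when they did not for 51.3% of all tested genes, 25.1% with midkine higher and 26.2% with midkine lower. At that background the count of called genes says little about the set, and the values of each gene follow. In bulk RNA, fewer cells of a type and less RNA per cell cannot be told apart.

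The stretches before the starts of P2rx4, P2rx7 and P2ry14 are shown because these genes passed the test in different directions and the first pair are neighbours. They are RefSeq sequences of GRCm38.p6, 5′ to 3′ on the strand of the gene, and hold the part of the 250 bases before the first annotated start that lies outside the gene model. P2rx4 is at chr5:122707294-122707543 on the plus strand, P2rx7 at chr5:122643677-122643910 on the plus strand and P2ry14 at chr3:59153619-59153742 on the minus strand. Capitals mark TGANTCA, a form of the AP-1 motif, or GAGGAA, a core of the PU.1 motif, both searched on both strands.
P2rx4: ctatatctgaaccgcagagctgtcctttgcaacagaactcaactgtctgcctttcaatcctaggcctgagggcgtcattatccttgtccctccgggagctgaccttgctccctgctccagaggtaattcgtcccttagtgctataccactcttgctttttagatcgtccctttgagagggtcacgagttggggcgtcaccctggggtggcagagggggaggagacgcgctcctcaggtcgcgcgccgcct
P2rx7: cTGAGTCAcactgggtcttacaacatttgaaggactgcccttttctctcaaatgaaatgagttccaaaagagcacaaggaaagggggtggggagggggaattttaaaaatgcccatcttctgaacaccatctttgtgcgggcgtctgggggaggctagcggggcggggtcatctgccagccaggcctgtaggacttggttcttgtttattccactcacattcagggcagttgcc
P2ry14: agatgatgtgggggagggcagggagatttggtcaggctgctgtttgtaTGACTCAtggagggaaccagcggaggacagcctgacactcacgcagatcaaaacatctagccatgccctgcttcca
TGANTCA was found in the first windows of P2rx7, 249 bases before the start, and of P2ry14, 202 bases before it, and none was found in that of P2rx4. It occurs in 6.75% of 32851 windows of 250 bases before RefSeq starts. P2rx4 has 1 window, P2rx7 has 2 and P2ry14 has 4, and more windows give more room for a match. The second window of P2rx7 holds no TGANTCA, and the second of P2ry14 holds 1. The first P2ry14 window also holds GAGGAA 21 bases before the start, inside the gene model and so not printed, a motif of 23.3% of windows. Each later P2ry14 window holds 1 match of GAGGAA on either strand, also inside the gene model. GGGCGG, the GC box, was found at 2 places in the first P2rx7 window, 90 and 11 bases before the start, and occurs in 32.7% of windows. It is not put in capitals, and the match at 11 bases, CCGCCC, lies inside the gene model and so is not printed. None of the matches in the first windows of these 3 genes overlaps another. The window of P2rx4 holds 13 CpG sites, the first of P2rx7 holds 6 and the first of P2ry14 holds 4, when the median of all windows is 6 (quartiles 2 and 16). A match is a description of letters and not a bound site. RefSeq windows were matched for 7 of the 8 genes, 12 windows in all, and P2ry6 is named only.

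**Figure D1:**
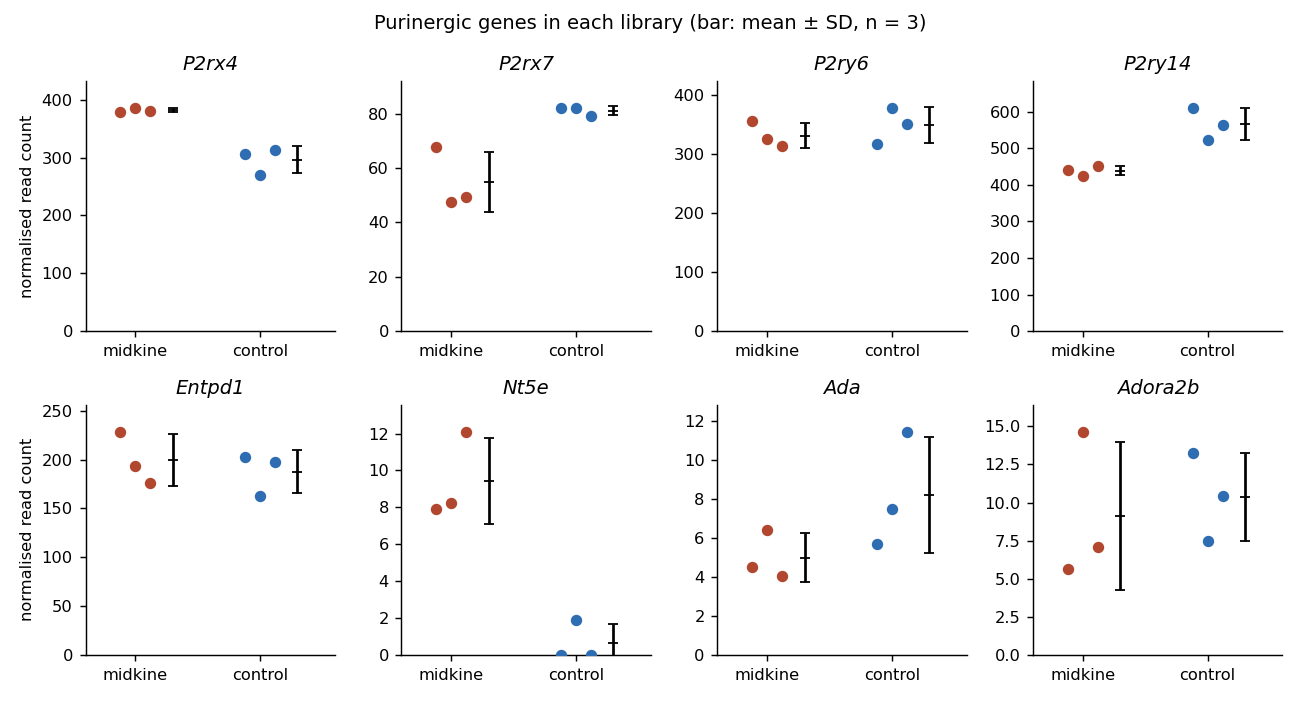
Normalised read count of each gene in each library (points; midkine left, control right), with the mean ± SD of 3 libraries as a bar and an axis from 0 in every panel. The 3 midkine points lie above all control points for P2rx4 and Nt5e and below them for P2rx7 and P2ry14, and they overlap for the other 4 genes.

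P2rx4 encodes an ATP-gated cation channel found on the surface and in endolysosomes of myeloid cells. It had 379, 386 and 380.35 normalised read counts in the midkine libraries, against 306, 269.6 and 314 in the control libraries. The midkine libraries lay close together and all above the highest control library, while control replicate 2 was the lowest of the 6. The mean was 382 ± 3.75 with midkine and 296 ± 23.5 in control (SD, n = 3 each), a log2 fold change of 0.37 (SE 0.0957, 95% interval 0.169 to 0.563, limma adjusted p = 0.00313). P2rx4 was called higher in 21 of 22 alternative settings, among them TMM factors (limma adjusted p = 0.00267), quantile normalization (0.00258) and total counts without ribosomal RNA (log2 fold change 0.29, limma adjusted p = 0.0160). The exception was total counts. With values scaled to total counts the log2 fold change was 0.11 (limma adjusted p = 0.380), where the median of all genes was -0.26, so P2rx4 stood 0.37 above that median. The 22 settings, here and for the other genes, include a threshold of 0.1 on the main fit, where no call can be lost.

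P2rx7 encodes the ATP-gated channel of low affinity that opens the way to inflammasome activation. Its midkine libraries had 67.6, 47.7 and 49.4 normalised read counts, and its control libraries 82.2, 82.1 and 79.2. All midkine libraries lay below all control libraries, and midkine replicate 1 was nearest to them. The mean was 54.9 ± 11.0 with midkine and 81.2 ± 1.69 in control, a log2 fold change of -0.57 (SE 0.171, 95% interval -0.925 to -0.221, limma adjusted p = 0.00858). P2rx7 was called lower in all 22 alternative settings, with log2 fold changes of -0.83 to -0.48.

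P2rx7 and P2rx4 are neighbours on chromosome 5 of GRCm38, on the same strand. P2rx7 spans 122643911 to 122691432 and P2rx4 spans 122707544 to 122729738, with 16111 bases and no annotated protein-coding gene between them, and an exon of P2rx7 overlaps the microRNA gene Mir8115. Because both were read in the same library, their ratio does not depend on scaling. It was chosen after the values were seen, as were the other ratios of this kind given below. P2rx4 had 5.60, 8.10 and 7.69 reads per P2rx7 read in midkine libraries, against 3.72, 3.28 and 3.96 in control libraries. The ratio averaged 7.13 ± 1.34 with midkine and 3.66 ± 0.343 in control, and the groups did not overlap.

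P2ry14 encodes the Gi-coupled receptor of UDP-glucose. It had 441, 425 and 451 normalised read counts with midkine and 610.2, 522 and 563 in control. Every midkine library was below every control library, and control replicate 1 was the highest. The mean was 439 ± 13 with midkine and 565 ± 43.9 in control, a log2 fold change of -0.36 (SE 0.0886, 95% interval -0.544 to -0.179, limma adjusted p = 0.00181), and it was called lower in all 22 alternative settings (-0.62 to -0.30). P2ry14, on chromosome 3 from 59113855 to 59153618 of GRCm38, lies inside Med12l, which is on the opposite strand and shares no exon bases with it. Med12l was not called (log2 fold change -0.04, limma adjusted p = 0.916).

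P2ry6 encodes the Gq-coupled receptor of UDP and lies on chromosome 7 from 100937630 to 100974649. It had 355, 324 and 314 normalised read counts in midkine libraries and 317, 378 and 351 in control libraries. The groups overlapped, with the highest midkine library above the middle control library. Its log2 fold change was -0.07 (95% interval -0.276 to 0.129, limma adjusted p = 0.580). Scaled to total counts it was called lower, at -0.33 (limma adjusted p = 0.0113), which is 0.07 below the all-gene median of that scaling.

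Entpd1 encodes CD39, the NTPDase that removes phosphates from ATP and ADP to leave AMP, and lies on chromosome 19 from 40612366 to 40741602. Its midkine libraries had 229, 193 and 177 normalised read counts and its control libraries 203, 162 and 198. Midkine replicate 1 was the highest of the 6 and control replicate 2 the lowest, and the groups overlapped. The log2 fold change was 0.09 (95% interval -0.167 to 0.338, limma adjusted p = 0.607), and it was below 0 when either of those libraries was left out or when values were scaled to total counts. Entpd1 was called in 0 of 22 alternative settings, edgeR and DESeq2 among them, and its unadjusted p was 0.491.

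Nt5e encodes CD73, the nucleotidase that turns AMP into adenosine, and lies on chromosome 9 from 88327197 to 88372092. Its mean over the 6 libraries was 5.02 normalised read counts, below the minimum of 10, so it was not part of the test. It had 7, 9 and 12 reads in the midkine libraries, against 0, 2 and 0 in the control libraries, where a count of 0 allows up to 3 reads. Every midkine library was above every control library, and the normalised values averaged 9.41 ± 2.34 with midkine and 0.622 ± 1.08 in control. The rate of reads, summed reads over summed library size factors, was 14.6 times as high with midkine, with an exact 95% interval of 3.67 to 126 that covers counting error only. Where the minimum was dropped, limma gave a log2 fold change of 2.85 (adjusted p = 0.000267, when 17.2% of 14905 genes were called higher), and edgeR and DESeq2 without a minimum also called it higher. The edgeR and DESeq2 fits without a minimum were added after the data were seen, so their calls carry no weight of their own. A minimum of 3 admitted Nt5e only through its midkine libraries, so its call there adds nothing.

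Ada encodes adenosine deaminase, which turns adenosine into inosine, and lies on chromosome 2 from 163726584 to 163750239. It had 4, 7 and 4 reads in midkine libraries and 6, 8 and 11 in control libraries, so the groups overlapped. The rate of reads was 0.624 times that of control, with an exact 95% interval of 0.306 to 1.23. A difference in Ada was not detectable at this depth, and it was called in 0 of the 4 settings that admitted it (log2 fold change -0.70 to -0.59, limma, edgeR or DESeq2 adjusted p 0.320 to 0.503).

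Adora2b encodes the low-affinity, Gs-coupled adenosine receptor and lies on chromosome 11 from 62248984 to 62266453. Its reads numbered 5, 16 and 7 in midkine libraries and 14, 8 and 10 in control libraries. Midkine libraries were both the highest and the lowest of the 6, and the groups overlapped. The rate of reads was 0.910 times that of control (exact 95% interval 0.528 to 1.56), so no difference was detectable at this depth.

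The cultures held several cell types, by their markers. Of all tested genes 20.9% were called higher and 21.8% lower, which is the background of the marker counts. All 6 pan-dendritic markers were seen, 2 called higher and 1 lower, and their summed normalised counts were 50810.5 to 54107 in midkine libraries and 44349 to 47659 in control libraries. Most of that sum was H2-Aa, H2-Ab1 and Cd74. The marker called lower was Zbtb46 (log2 fold change -0.47, limma adjusted p = 3.08e-05), and those called higher were Itgax (0.83) and H2-Ab1 (0.27). Of 7 tested plasmacytoid markers 6 fell and 1 rose (sums 1425 to 1491 with midkine, 5241 to 5430.0 in control), and 7 of 7 type 1 conventional markers fell (12830 to 14655, against 24269.8 to 28517). Of 7 type 2 conventional markers 5 rose and 0 fell (3758 to 4378, against 2873 to 3134), and of 8 macrophage markers 2 rose and 3 fell (2739 to 2874, against 2769 to 3959). Of 7 stromal markers 6 rose and 1 fell (24288 to 28634, against 9352 to 11193). Neutrophil markers, 3 of 3 tested lower, summed to 30.2 to 56.3 against 516 to 644, with Ly6g at 0 in midkine libraries and at 1 read summed over control libraries. B lymphoid markers, 2 of 4 tested lower, summed to 110.0 to 144 against 134 to 258, with Vpreb1 at 0 in midkine libraries. Ngp, Vpreb1 and Pacsin1 passed the minimum of 10 only through their control libraries (means 5.52, 0 and 6.04 with midkine). Clec4a4 passed it only through its midkine libraries (mean 6.89 in control). The calls of these genes, and their places in the marker counts, carry no weight of their own. T and natural killer, mast cell and erythroid markers had no member above the minimum, with sums of at most 14.7 in any library. Cpa3, Ms4a2 and Prss34 were at 0 with midkine, and had only 1, 2 and 6 reads summed over control libraries. Hbb-bs was at 0 in control, and had only 4 reads summed over midkine libraries. Mitochondrial ribosomal RNA took 18.1% to 20.9% of reads with midkine and 9.33% to 9.86% in control, at 5685055 to 6453768 and 5089338 to 5532055 reads per library. These values move with the treatment, and their part in the changes of the purinergic genes was not tested.

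Beyond the 8 genes, 102 other genes were listed by role: nucleotide and adenosine handling, the inflammasome arm of P2X7, and the G protein and cyclic AMP arm. Of the 102 genes, 79 were in the table and 70 tested. Of these, 16 were called higher and 24 lower, and their median log2 fold change was -0.10, when that of all tested genes was -0.0086, with 20.9% of them called higher and 21.8% lower. Scaled to total counts the split was 10 higher and 36 lower, when 10.8% of all tested genes were higher and 40.7% lower. The count of lower genes was 12 with DESeq2, 15 without midkine replicate 2 and 14 without control replicate 1. Of all tested genes 17.1%, 19.6% and 19.2% were called lower in those settings. The main and total counts shares of all tested genes given here hold for every list below. The groups did not overlap for 51.3% of all tested genes.

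**Figure D2:**
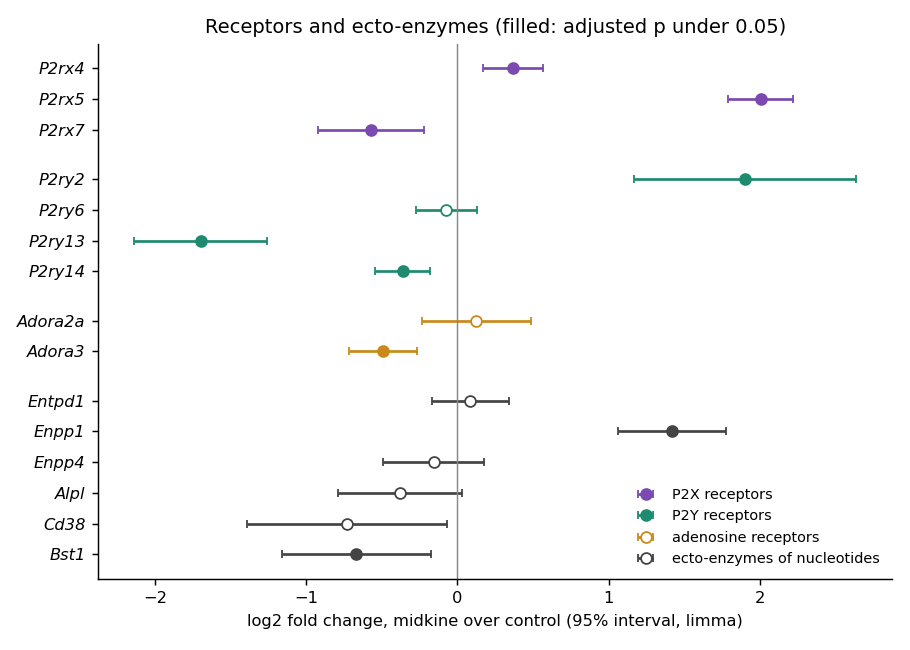
Log2 fold change (midkine over control, limma) with its 95% interval for each tested P2X, P2Y and adenosine receptor and ecto-enzyme; filled points have an adjusted p under 0.05. P2rx5, P2ry2 and Enpp1 lie above 1, P2ry13 lies below -1, and the genes P2rx4, P2rx7 and P2ry14 lie nearer to 0.

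Of 7 P2X genes listed, 4 were in the table and 3 tested, and these were called, 2 higher and 1 lower, with a median log2 fold change of 0.37; with total counts 1 was higher and 1 lower. P2rx5, another ATP-gated channel subunit, had 554, 649.7 and 604 normalised read counts with midkine and 133, 167 and 149 in control. All midkine libraries were several times above all control libraries. P2rx5 rose by 2.01 on the log2 scale (SE 0.105, limma adjusted p = 5.17e-14). It had 1.58 ± 0.11 reads per P2rx4 read in midkine libraries and 0.510 ± 0.0969 in control libraries, without overlap, so the P2X genes moved unequally whatever the scaling. P2rx1, named after its values were seen, had 4 reads summed over the midkine libraries and 1 summed over the control libraries.

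Of the 4 tested P2Y genes, 7 listed and 6 in the table, 1 was called higher and 2 lower, with a median log2 fold change of -0.22; with total counts 1 was higher and 3 lower. P2ry2, the receptor of ATP and UTP, had 22.5, 20.2 and 27.2 normalised read counts with midkine and 4.72, 4.66 and 7.30 in control, or 1.90 on the log2 fold change scale (SE 0.357, limma adjusted p = 0.000112). With a control mean of 5.56, P2ry2 passed the minimum of 10 only through its midkine libraries, so its call, and its place in the count of P2Y genes, carry no weight of their own. P2ry2 lies 21918 bases from P2ry6 on the same strand of chromosome 7, with no protein-coding gene between them. P2ry2 had 0.0708 ± 0.0139 reads per P2ry6 read in midkine libraries and 0.0160 ± 0.00432 in control libraries, and the groups did not overlap. This ratio was also chosen after the values were seen. It rests on the same low control counts, so its separation carries no weight of its own.

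P2ry13, an ADP receptor that lies near P2ry14 on chromosome 3, had 16.9, 27.5 and 21.2 normalised read counts with midkine and 76.5, 68.1 and 70.9 in control. It fell by 1.70 on the log2 scale (SE 0.214, limma adjusted p = 4.45e-07), and the groups lay far apart. P2ry13 had 0.05 ± 0.0134 reads per P2ry14 read with midkine and 0.127 ± 0.00273 in control, so within this cluster P2ry13 was lower relative to P2ry14, without overlap. The ratio of P2ry6 to P2ry14 reads did overlap between the groups, at 0.755 ± 0.0554 with midkine and 0.622 ± 0.102 in control. P2ry12, the ADP receptor next to P2ry13, had 2, 4 and 2 reads with midkine and 31, 12 and 6 in control, and P2ry1, also a receptor of ADP, had 10, 12 and 14 against 8, 11 and 4; both were below the minimum and were named after their values were seen. P2ry12 shares exon bases with Med12l on the other strand, so its reads are uncertain where the counting ignored strand.

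Of the adenosine receptors, 4 listed and 3 in the table, 2 were tested and 1 was called, lower, with a median of -0.18. Adora3, the Gi-coupled A3 receptor, had 192, 171 and 167 normalised read counts with midkine and 264, 231 and 250.1 in control, all midkine libraries below all control libraries. It fell by 0.49 on the log2 scale (SE 0.109, limma adjusted p = 0.000707). Tmigd3 on the same strand shares exon bases with it, so its reads are uncertain. Adora2a, the Gs-coupled high-affinity receptor, named after its values were seen, had 64.2, 99.9 and 66.6 with midkine and 68.0, 65.3 and 74.0 in control, where midkine replicate 2 stood above the other 5 (log2 fold change 0.12, limma adjusted p = 0.599).

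Of the ecto-enzymes, 12 listed, 8 in the table and 6 tested, 1 was called higher and 1 lower, with a median log2 fold change of -0.27; with total counts 1 was higher and 4 lower. Enpp1, which cleaves ATP to AMP and pyrophosphate, had 116, 138 and 97.9 normalised read counts with midkine and 35.9, 43.8 and 50.03 in control. Its midkine libraries were all above its control libraries, and it rose by 1.42 on the log2 scale (SE 0.174, limma adjusted p = 2.77e-07). Bst1, an ADP-ribosyl cyclase, fell by 0.67 (limma adjusted p = 0.0261), a call that DESeq2 and 4 of the 6 fits without a library did not give. Those libraries were midkine replicates 1 and 2 and control replicates 1 and 3, and the log2 fold change without them was -0.64 to -0.53. The exons of Bst1 overlap those of Fbxl5 on the other strand.

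**Figure D3:**
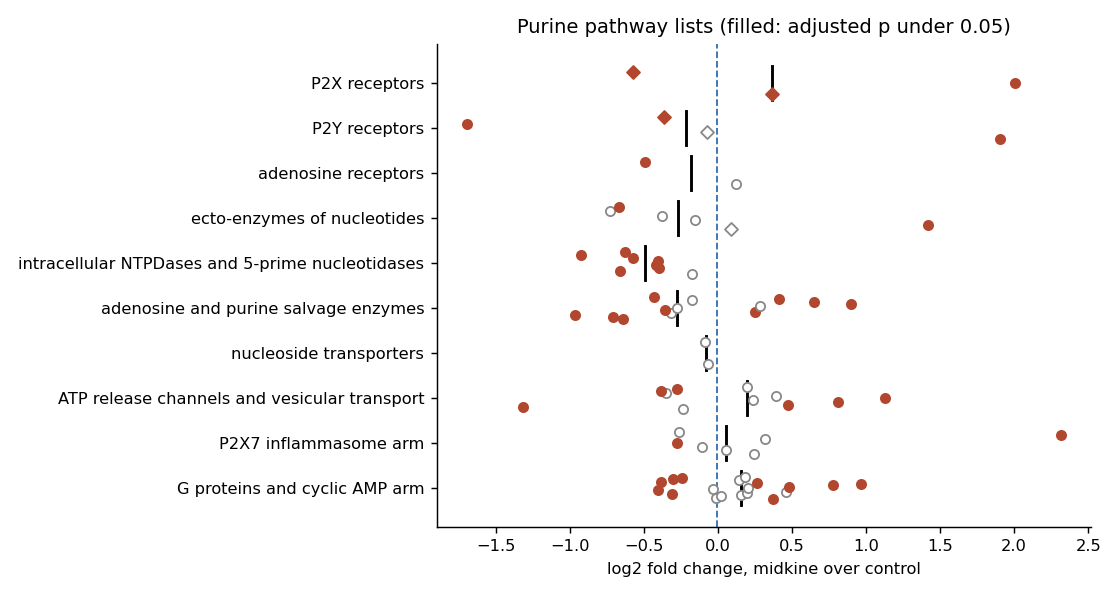
Log2 fold change (midkine over control) of every tested gene in 10 lists; filled marks have an adjusted p under 0.05 (limma), diamonds are genes of the set of 8, black bars are list medians and the dashed line is the median of all genes. The intracellular nucleotidases all lie below 0, while salvage, ATP release and cyclic AMP genes lie on both sides.

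Of the 8 tested intracellular NTPDases and nucleotidases, of 12 listed, 7 fell and 0 rose, with a median log2 fold change of -0.50; with total counts 8 were lower. Of all tested genes 21.8% were called lower, and 40.7% with total counts. Entpd6, an NTPDase of the secretory pathway, had 98.5 ± 17.6 normalised read counts with midkine and 157 ± 32.9 in control (log2 fold change -0.66, limma adjusted p = 0.00108). Nt5c3, a pyrimidine nucleotidase, had 126 ± 20.0 with midkine and 188 ± 39.4 in control (-0.57), and Nt5c2, a cytosolic purine nucleotidase, had 143 ± 8.91 and 189.9 ± 7.22 (-0.41). Nt5c, a deoxyribonucleotidase, fell by 0.42 (limma adjusted p = 0.0165), but its adjusted p was 0.0547 with DESeq2, 0.0624 in limma without midkine replicate 2 and 0.0744 without control replicate 1. Nt5c3b, Entpd7 and Nt5m, named after their values were seen, had limma adjusted p of 0.0253, 0.0373 and 0.0338, and the groups overlapped for Nt5c3b. Their calls were not followed gene by gene in the alternative settings.

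Among adenosine and purine salvage enzymes, 16 listed, 15 in the table and 13 tested, 4 rose and 5 fell, with a median log2 fold change of -0.28; with total counts 2 were higher and 7 lower. Pnp, which splits inosine and guanosine, had 112, 102 and 120.1 normalised read counts with midkine and 237, 226 and 193 in control, about 1.97-fold lower with midkine (log2 fold change -0.97, limma adjusted p = 5.41e-07). Xdh, which makes uric acid from hypoxanthine and xanthine, had 145, 150.3 and 131 with midkine and 68.0, 84.0 and 76.1 in control, a rise of 0.90 on the log2 scale (limma adjusted p = 9.71e-06). Both genes separated the groups without overlap, in opposite directions, as 51.3% of all tested genes did in either direction. Gda, guanine deaminase, rose by 0.65 (limma adjusted p = 0.00121), and Dpp4, a surface peptidase that binds adenosine deaminase in humans, fell by 0.43 (limma adjusted p = 0.000347).

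Neither tested nucleoside transporter was called, of 7 listed and 5 in the table, and their median log2 fold change was -0.08. Slc29a3, a lysosomal nucleoside transporter, had a mean difference of -0.09 on the log2 scale (limma adjusted p = 0.428), and Slc29a1, the transporter of the surface membrane, one of -0.07 (limma adjusted p = 0.627). Scaled to total counts both were called lower, at -0.35 and -0.32, with the all-gene median at -0.26. Their intervals were -0.261 to 0.0859 for Slc29a3 and -0.275 to 0.141 for Slc29a1.

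Of ATP release channels and vesicular transport genes, 18 listed, 12 in the table and 11 tested, 3 rose and 3 fell (median 0.19); with total counts 2 were higher and 5 lower (median -0.06). Lrrc8d, a subunit of the volume-regulated anion channel, had 297, 346 and 256 normalised read counts with midkine and 138, 145 and 125 in control, which is 1.13 on the log2 scale (limma adjusted p = 2.67e-08). Lrrc8b, of the same channel, rose by 0.81 (limma adjusted p = 0.00405). Gja1, a connexin that forms hemichannels, had 31.6, 39.4 and 42.4 with midkine and 85.0, 106 and 94.8 in control and fell by 1.32 on the log2 scale (limma adjusted p = 1.15e-06). Both Lrrc8d and Gja1 separated the groups without overlap, as 51.3% of all tested genes did. Ano6, a phospholipid scramblase that acts downstream of P2X7, fell by 0.39 (limma adjusted p = 0.0101), and was not called without control replicate 3 (-0.33, limma adjusted p = 0.0664).

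In the inflammasome arm of P2X7, 7 listed and 7 tested, 1 rose, 1 fell and 5 were not called, with a median log2 fold change of 0.05; with total counts 1 was higher and 3 lower. Il1b, the cytokine precursor that inflammasomes process, had 1608, 1579 and 1505 normalised read counts in midkine libraries and 349.5, 295 and 298 in control libraries. It was 4.98-fold higher with midkine (limma adjusted p = 7.89e-17), beside P2rx7 that was lower in the same libraries. Nek7, a kinase that NLRP3 needs, had a log2 fold change of -0.28 at a limma adjusted p of 0.0463, with overlapping groups, and 10 of 22 alternative settings did not call it. Those include leaving out midkine replicate 2 (-0.15, limma adjusted p = 0.292), control replicate 1 (-0.21) or control replicate 3 (-0.26).

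In the G protein and cyclic AMP arm, 20 listed and 19 tested, 5 rose and 5 fell, with a median log2 fold change of 0.16; with total counts 2 were higher and 5 lower (median -0.10). Pde4b, a phosphodiesterase that breaks down cyclic AMP, had 453, 513 and 516 normalised read counts with midkine and 366, 246 and 263 in control, which is 0.78 on the log2 scale (limma adjusted p = 5.82e-06). Gnas, the stimulatory G protein subunit that carries the signal of the A2 receptors, rose by 0.37 (limma adjusted p = 0.000530), but was not called with total counts (0.11, limma adjusted p = 0.322). Adcy7, an adenylyl cyclase, fell by 0.41 (limma adjusted p = 0.000828) and Prkacb, a catalytic subunit of protein kinase A, fell by 0.38 (limma adjusted p = 0.000976). The groups did not overlap for any of these 4 genes, when they did not for 51.3% of all tested genes.

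**Figure D4:**
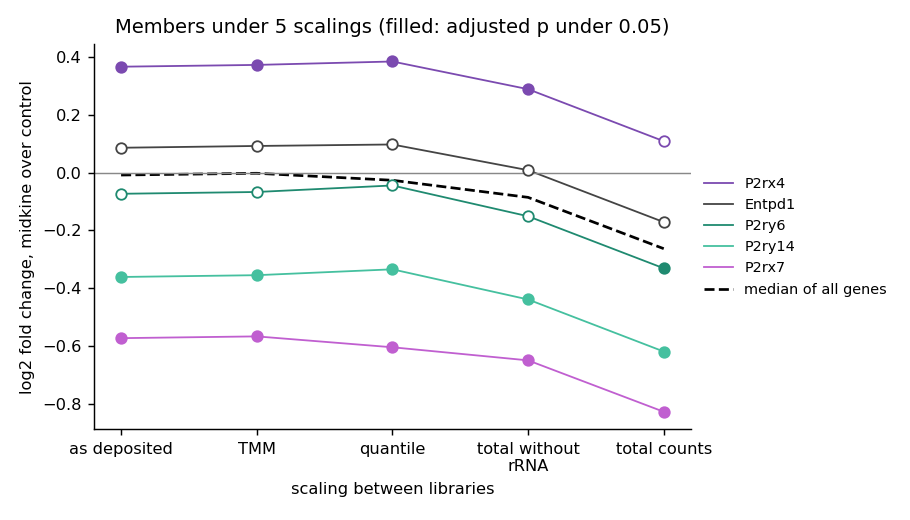
Log2 fold change (midkine over control) of the 5 tested genes of the set under 5 scalings between libraries; filled points have an adjusted p under 0.05 (limma) and the dashed line is the median of all genes. The 5 genes keep their order in every scaling. With total counts they drop together with the median of all genes, which is -0.26 there. In that scaling P2rx4 at 0.11 is not called, P2ry6 at -0.33 is called and Entpd1 passes below 0. With quantile normalization the median is slightly lower than as deposited, as is P2rx7, while P2rx4, Entpd1, P2ry6 and P2ry14 are slightly higher.

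The genes most like each tested member over the 6 libraries were picked by Pearson's r of log2 values among 10804 genes, as a description in which the groups set most of the likeness. Maob (r = 0.997, Spearman's rho 1.00) and Cpd (0.997, rho 0.829) were most like P2rx4, Pmm2 (0.997, rho 0.829) and Ubash3b (0.996, rho 0.943) most like P2rx7, and Cyb5r4 (0.997, rho 1.00) and Wdr44 (0.996, rho 1.00) most like P2ry14. Such likeness was common, with 857, 742 and 1226 genes at an r of at least 0.9 for P2rx4, P2rx7 and P2ry14. For the genes not called it was rarer: 38 genes for P2ry6, led by Adamts5 (r = 0.983, rho 0.943) and Gprin3 (0.975, rho 0.829), and 22 for Entpd1, led by Lrrc61 (0.976, rho 0.829) and Lrrc28 (0.972, rho 0.943).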

How the data were processed

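Total RNA (500 ng per sample) of 6 samples of cultured bone marrow was made into libraries with the forward QuantSeq kit, which reads 3′ ends, per the labels. The submitters' processing notes list DESeq2, HTSeq, SAMtools 0.1.19 and the aligners TopHat2 2.0.10 and Bowtie 1.0.0, beside FastQC 0.11.0, and give GRCm38 and mm10 as builds; no annotation or strand setting is given in the sources used here. The authors deposited a signal table in which each library's read counts stand divided by its size factor. Whole reads were recovered from the step between values (0.916 to 1.13 per read), and 100% of values were whole multiples within 1e-06 reads. No column was left unmapped. Replicates of every pair differed beyond counting noise (chi-square per degree of freedom 2.31 to 10.6) and were counted as separate samples, as the labels give them; this does not show that they are biological replicates.

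Genes with a mean of at least 10 were tested with limma 3.58.1 (variance trend, R 4.3.3) after log2(value + 1), calling genes at a Benjamini-Hochberg adjusted p under 0.05 over 11844 genes. On that scale the fold changes of low genes are understated. All members were named; in each pathway list up to 4 called genes with the smallest p, or the 2 highest of a list without calls, and the 2 genes most like each tested member. The members and lists were chosen with earlier results of these data known. Alternatives were pseudocounts of 0.5 and 5, other minimums, other scalings, no variance trend, a replicate block, edgeR 4.0.16 (5157 genes called) and DESeq2 1.42.0 on recovered reads, a threshold of 0.1 and leaving out each library. edgeR and DESeq2 without a minimum were added after seeing the data. Read rate ratios carry exact (Clopper-Pearson) 95% intervals. No molecular identifiers are named, and these intervals and the floor of 3 reads cover only counting error. Positions come from the GENCODE vM21 annotation (GRCm38), which held 99.6% of the symbols. matplotlib 3.10.9, SciPy 1.17.1, pandas 2.3.3 and NumPy 2.4.6 under Python 3.11.15 made the tables and figures.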

Additional observations from a re-analysis of the deposited data

How the results depend on the processing

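The counts that changed by over 1.5 times were few. Genes of the set called higher numbered 1, against 2 without a minimum, with a minimum of 3, and with edgeR or DESeq2 without a minimum, where Nt5e was added, and 0 with total counts, where P2rx4 was lost. Genes of the set called lower numbered 2 in the main test and in every alternative but total counts, where P2ry6 made 3. Other pathway genes called higher numbered 16, against 10 with total counts. Those called lower numbered 24, against 12 with DESeq2 and 13 with DESeq2 without a minimum. When 1 library was left out they numbered 14 to 19. Of all genes 17.1%, 13.7% and 18% to 19.8% were called lower in those settings, against 21.8% in the main test. The cause was not tested. With total counts the lower pathway genes numbered 36. Over all genes 5059 were called, with 4305 to 4563 when 1 library was left out. Total counts gave 1283 higher and 4817 lower genes, against 2481 and 2578. Entpd1, at 0.09 and not called, changed sign with total counts (-0.17), without midkine replicate 1 (-0.0164) and without control replicate 2 (-0.0153); over the fits that leave out 1 library it was -0.0164 to 0.17. For the named genes, 652 alternative values kept direction and side of the threshold, 23 lost the call, 3 gained it and 3 changed sign. The threshold of 0.1 reuses the main fit, so there a called gene could only keep its call.

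Same-numbered replicates did not deviate together (correlations -0.0577 to 0.0286), so the numbers were not taken as pairs. With a replicate block 5160 genes were called, 1 of the set higher and 2 lower, and 16 other pathway genes higher and 24 lower. Counts of at most 16 reads per library limit what can be said of Nt5e, Ada and Adora2b.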
